A study of Homo sapiens with 12 samples.

Results

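Androgen response genes outside the kallikreins were followed through 3 deposited lists of accessible-chromatin regions from 22Rv1 cells. The set held 33 of 20037 protein-coding genes, chosen by name, and a listed region was counted at a gene if it overlapped the gene body or the 10 kb on either side, called the locus here. Chromatin was profiled by ATAC-seq, in which a transposase cuts into DNA that it can reach, and the nucleosome-free fragments were kept. The 12 samples were all of genotype WT and formed 4 groups of 3, described as biological triplicates: enzalutamide at 1 µM for 6 h, OSU-ERb-12 at 100 nM for 6 h, OSU-ERb-12 plus enzalutamide for 6 h with no dose in the labels of that group, and vehicle. The regions deposited for the enzalutamide, OSU-ERb-12 and combined treatments numbered 25317, 17931 and 6248, and the last of these is called the combination list.

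The androgen receptor is a steroid-activated transcription factor. It binds DNA at paired hexamers, often far from promoters and beside forkhead factor sites, and drives genes of secretion, lipid synthesis and growth in luminal prostate cells. Enzalutamide is an antiandrogen that binds the ligand-binding domain of the receptor, while the other compound, OSU-ERb-12, acts through oestrogen receptor beta. 22Rv1 is an established prostate cancer line that expresses the full-length receptor together with splice variants that lack the ligand-binding domain.

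The lists hold positions on hg38 and no value per library, so no replicate error, depth or test over samples can be given for any count. They were taken as regions that differ from vehicle. The sources used here do not say in which direction, so a region marks a place and not a gain or loss of accessibility. All 3 lists carry a tag, neg, that is not defined, and they may hold 1 direction only. A region missing from a list is also no sign of an unchanged place, and a gene without a region may still have changed. The study has 1 vehicle group, so if each list is a comparison with it, overlaps among the lists are no independent evidence. Markers of the cell line cannot be checked in such lists.

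The start sites of these genes come first, because they are where listed regions and reference sequence meet. RefSeq promoter windows of GRCh38.p14, 250 bases before to 50 bases after a start site, were matched for 25 of the 33 genes, with 42 windows in all. TMPRSS2, ADAMTS1, PLPP1, SORD, NDRG1, TPD52, ZBTB10 and ELL2 had no match. A listed region overlapped 4 of the windows, each from the enzalutamide list. They are shown 5′ to 3′ on the strand of the gene, and capitals mark the bases that the enzalutamide region covers.

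HOMER2 (chr15:82952671-82952970, minus strand): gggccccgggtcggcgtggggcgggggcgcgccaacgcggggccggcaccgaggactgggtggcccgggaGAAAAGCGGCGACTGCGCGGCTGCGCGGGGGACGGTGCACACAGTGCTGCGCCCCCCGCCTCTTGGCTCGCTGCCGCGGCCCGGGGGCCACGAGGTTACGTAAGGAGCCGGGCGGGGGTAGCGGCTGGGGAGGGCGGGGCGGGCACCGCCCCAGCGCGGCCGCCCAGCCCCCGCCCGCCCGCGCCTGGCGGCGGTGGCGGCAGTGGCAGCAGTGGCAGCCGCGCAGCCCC
STEAP2 (chr7:90211490-90211789, plus strand): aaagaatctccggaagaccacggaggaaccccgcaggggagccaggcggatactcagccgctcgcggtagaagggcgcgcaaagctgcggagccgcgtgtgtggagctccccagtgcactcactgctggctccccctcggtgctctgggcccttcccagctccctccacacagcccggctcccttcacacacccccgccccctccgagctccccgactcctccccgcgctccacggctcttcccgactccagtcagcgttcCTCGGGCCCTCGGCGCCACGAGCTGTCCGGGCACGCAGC
HPGD (chr4:174522844-174523143, minus strand): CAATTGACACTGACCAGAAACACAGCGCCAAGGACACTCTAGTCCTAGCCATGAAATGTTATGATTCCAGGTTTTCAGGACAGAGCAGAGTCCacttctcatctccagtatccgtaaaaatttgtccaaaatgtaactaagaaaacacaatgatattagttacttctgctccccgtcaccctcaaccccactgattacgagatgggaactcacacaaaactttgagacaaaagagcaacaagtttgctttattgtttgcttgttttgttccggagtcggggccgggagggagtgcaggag
IDI1, inner start site (chr10:1048837-1049136, minus strand): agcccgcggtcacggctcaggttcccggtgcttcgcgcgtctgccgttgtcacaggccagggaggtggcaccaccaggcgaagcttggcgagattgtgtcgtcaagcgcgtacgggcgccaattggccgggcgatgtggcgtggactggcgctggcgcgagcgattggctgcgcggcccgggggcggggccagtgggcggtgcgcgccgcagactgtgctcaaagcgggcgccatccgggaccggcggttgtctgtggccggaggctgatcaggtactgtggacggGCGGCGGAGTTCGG

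The 4 windows differ in how far the region reaches. In HOMER2, which encodes a synaptic scaffold protein, the region covered 230 of the 300 bases and ran across an inner start site. In STEAP2 it covered 39 bases and began 11 bp after the start site, and in IDI1 it covered 14 bases and began 36 bp after the inner start site. In HPGD it covered the 93 bases farthest before the start site and stopped 158 bp short of it. GC content was 82.0% in the HOMER2 window, 71.3% in IDI1, 70.3% in STEAP2 and 44.7% in HPGD.

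Enzalutamide regions were present at 28 of the 33 genes (84.8%, exact Clopper-Pearson 95% interval 68.1 to 94.9), against 58.3% of all protein-coding genes. OSU-ERb-12 regions were present at 16 (48.5%, 30.8 to 66.5), against 39.1% of all genes. Combination regions were present at 9 (27.3%, 13.3 to 45.5), against 21.7%. The intervals cover the counting of genes only. With 10 kb on either side the enzalutamide interval lay above the share of all genes, and the other 2 intervals held it. Locus length moves with these shares: the median locus was 80.1 kb for the 33 genes and 44.1 kb for all protein-coding genes.

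By length of locus, the enzalutamide share of the 33 genes was higher than that of all genes in each of 4 bands, each of which holds few of the 33. It was 5 of 8 genes under 50 kb (62.5%, against 47.9% of all genes), 12 of 13 from 50 to 100 kb (92.3%, against 62.9%), 6 of 7 from 100 to 200 kb (85.7%, against 76.3%) and 5 of 5 at 200 kb or more (100%, against 88.6%). For OSU-ERb-12 and the combination, the genes with loci of 100 kb or more were below all genes of that length and the shorter ones above. Per 100 kb of locus the 33 genes held 1.64 enzalutamide, 0.672 OSU-ERb-12 and 0.269 combination regions, and all protein-coding genes held 1.36, 0.816 and 0.328 in the same order. Per gene the median was 1, 0 and 0 regions for the 33 genes and also 1, 0 and 0 for all genes, in that order of lists.

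**Figure D1:**
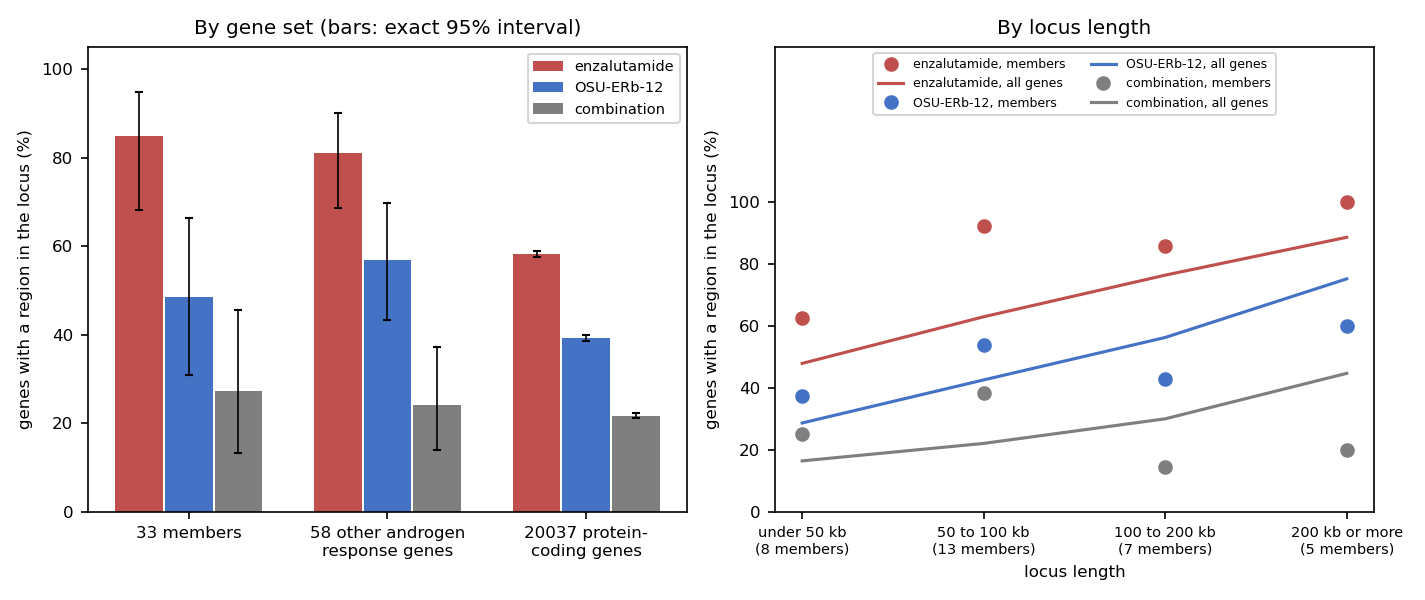
Share of genes with a listed region in the locus, in percent. Left, bars for the 33 genes, 58 other androgen response genes and all 20037 protein-coding genes, with exact 95% intervals that cover counting only; right, the 33 genes (points) and all genes (lines) by locus length. The enzalutamide bar is the tallest in each gene set, and shares of all genes rise with locus length.

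The enzalutamide count rests in part on distant flanks. In 21 genes an enzalutamide region overlapped the gene body (63.6%, exact 95% interval 45.1 to 79.6, against 41.0% of all protein-coding genes), and in TRPM8 the only region lay 1973 bp outside it. The only region of AZGP1, SCD, INSIG1, SORD, CAMKK2 and NCAPD3 lay between 5 and 10 kb from the gene, so with 5 kb on either side 22 of the 33 genes held one (66.7%, 48.2 to 82.0), against 53.0% of all genes. At that setting the interval held the share of all genes, unlike with 10 kb. These intervals cover counting only and are no test, and all genes were not matched to the 33 for locus length. The nearest other gene matters there too. The region counted for NCAPD3 lay inside VPS26B, and the one counted for CAMKK2 lay nearer to ANAPC5, at 3545 bp, than to CAMKK2, at 6682 bp.

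Seen gene by gene, 20 genes held more enzalutamide than OSU-ERb-12 regions, 4 held fewer and 9 held equal numbers, 5 of these with at least 1 region of each. No gene held more combination than enzalutamide regions. The combination count was higher than the OSU-ERb-12 count in 4 genes and lower in 12. List length differs in the same order, so these counts cannot be read apart from the lists as a whole. The same comparisons were not computed over all protein-coding genes, so whether these genes differ from genes in general was not tested.

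The genes fell into 6 patterns. TRPM8, AZGP1, ADAMTS1, SORD, STK39, IQGAP2, RAB3B, TPD52 and NCAPD3, 9 of the 33, held enzalutamide regions alone, as did 23.1% of all protein-coding genes. STEAP4, ABCC4, ACSL3, PLPP1, SCD, CAMKK2, NDRG1, HERC3, ELL2 and EAF2 (10 genes) held enzalutamide and OSU-ERb-12 regions, against 18.2% of all genes. PTGER4, IDI1, HPGD and ZBTB10 (4 genes) held enzalutamide and combination regions, against 6.00%, and STEAP2, PMEPA1, INSIG1, HOMER2 and MAF (5 genes) held regions of all 3 lists, against 11.0%.

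CENPN alone held only an OSU-ERb-12 region, a pattern of 7.70% of all genes. None of the 33 held combination regions alone (2.46% of all genes) or OSU-ERb-12 with combination regions and no enzalutamide region (2.23%). TMPRSS2, SLC45A3, HMGCS1 and MPHOSPH9 held no region of any list, as did 29.3% of all genes. Because the 3 treatments have a single vehicle group, nothing is read from the genes that hold several lists.

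**Figure D2:**
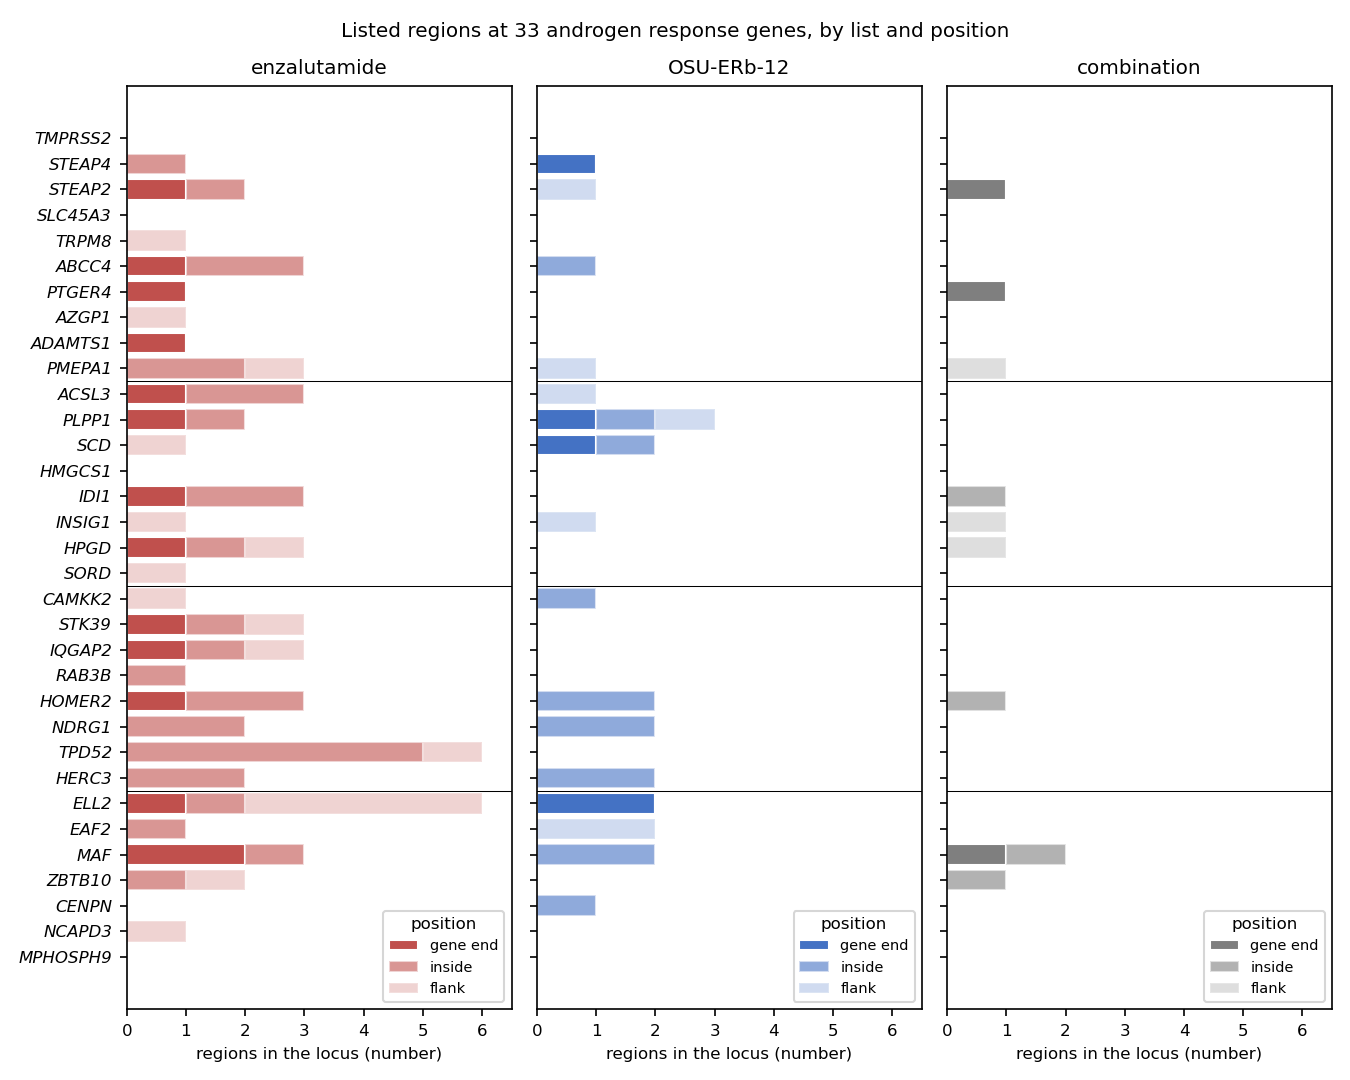
Number of listed regions at each of the 33 genes in the enzalutamide, OSU-ERb-12 and combination lists (x axis), with genes in 4 groups by role. Dark, middle and light shades are regions within 1 kb of either gene end, elsewhere inside the gene, and in the flank; TPD52 and ELL2 reach 6 enzalutamide regions, while no gene exceeds 3 OSU-ERb-12 or 2 combination regions.

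Genes of surface, transport and secreted proteins numbered 10, of which 8 held enzalutamide, 4 OSU-ERb-12 and 3 combination regions. Of all protein-coding genes 58.3%, 39.1% and 21.7% did, in that order. Groups by role are small, and their counts were not tested against these shares. TMPRSS2, a transmembrane serine protease gene and a standard androgen target (chromosome 21, 41464305 to 41508158), was empty within 10 kb. Its nearest enzalutamide region lay 13.5 kb beyond the end with the higher coordinate, at 41521651 to 41521850, while the nearest OSU-ERb-12 and combination regions lay 143.5 and 144.3 kb away. An enhancer bound by the androgen receptor upstream of TMPRSS2 is known, but whether this region belongs to it was not tested.

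The metalloreductase genes STEAP2 and STEAP4 differed in which list reached the start of the gene. At STEAP2 the enzalutamide region shown above, at 90211751 to 90212450 on chromosome 7, held the combination region at 90212151 to 90212350 within it. Both lay just after the start site, and the OSU-ERb-12 region at 90245301 to 90245500 lay beyond the far end, inside the neighbouring gene CFAP69. The second enzalutamide region of STEAP2, at 90223151 to 90223350, lay inside the gene and apart from both. At STEAP4 the region near the start, at 88306451 to 88306750 on chromosome 7, came from the OSU-ERb-12 list, 144 to 443 bp after the start site. The enzalutamide region of STEAP4, at 88282001 to 88282200, lay deep inside the gene.

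PTGER4, the gene of the prostaglandin E receptor EP4, held 1 enzalutamide region at 40680001 to 40680350 on chromosome 5 and, within it, 1 combination region at 40680101 to 40680300. They began 86 and 186 bp after the start site. ABCC4, an efflux transporter gene, held 3 enzalutamide regions on chromosome 13. Of these, 1 lay 151 to 350 bp after the start site, at 95301101 to 95301300, and the other 2 lay as neighbours inside the gene at 95127901 to 95128150 and 95128451 to 95128650. The OSU-ERb-12 region of ABCC4, at 95258801 to 95259050, lay apart from them.

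PMEPA1, which encodes a membrane inhibitor of TGF-beta signalling, was the one surface gene with regions of all 3 lists and no overlap among them. Its outer flank on chromosome 20 held an OSU-ERb-12 region at 57713251 to 57713500, a combination region at 57714901 to 57715150 and an enzalutamide region at 57716651 to 57716850, spaced 1779, 3429 and 5179 bp before the gene. A further 2 enzalutamide regions lay inside it, at 57697501 to 57697750 and 57709151 to 57709350. ADAMTS1, a secreted metalloprotease gene, held 1 enzalutamide region across a gene end, at 26845351 to 26845700 on chromosome 21.

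TRPM8, a cold-sensing cation channel gene, and AZGP1, which encodes a secreted zinc-binding glycoprotein, held 1 enzalutamide region each, both outside the gene. SLC45A3, the gene of the prostate membrane protein prostein, held none. The nearest regions lay 20.5 kb away for OSU-ERb-12, 22.8 kb for enzalutamide and 404.2 kb for the combination.

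Genes of lipid, sterol and sugar metabolism numbered 8, of which 7 held enzalutamide, 4 OSU-ERb-12 and 3 combination regions. The shares of all protein-coding genes were 58.3%, 39.1% and 21.7%. IDI1, HMGCS1, INSIG1 and SCD are also targets of the sterol-responsive SREBP factors, and they did not look alike here. IDI1, the isopentenyl diphosphate isomerase gene on chromosome 10, held 3 enzalutamide regions, at 1048451 to 1048850, 1050551 to 1050950 and 1055901 to 1056250. The last lay at a gene end, 454 to 803 bp after the outer start site, and the other 2 lay elsewhere inside the gene. Its combination region, at 1050551 to 1050850, shared the first base of the middle one. HMGCS1, the sterol pathway HMG-CoA synthase gene, held no region, and its nearest enzalutamide region lay 96.3 kb away.

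INSIG1, whose protein retains SREBP precursors in the endoplasmic reticulum, held regions of all 3 lists, all upstream of the start site. The enzalutamide and combination regions had the same boundaries, 155291001 to 155291200 on chromosome 7, 6678 bp before the gene. The OSU-ERb-12 region lay farther out, at 155288601 to 155288800. Both positions are inside the annotated divergent transcript INSIG1-DT. SCD, the stearoyl-CoA desaturase gene on chromosome 10, held 2 OSU-ERb-12 regions in the last part of the gene, at 100363101 to 100363300 and 100364351 to 100364550. Its enzalutamide region lay 8925 bp beyond the gene, inside the non-coding gene OLMALINC.

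PLPP1, a lipid phosphate phosphatase gene on chromosome 5, was the gene with most OSU-ERb-12 regions, 3 in all. The OSU-ERb-12 region at 55509301 to 55509500 overlapped the enzalutamide region at 55509101 to 55509450 by 150 bp. At the gene end the OSU-ERb-12 region at 55534001 to 55534200 lay within the enzalutamide region at 55534001 to 55534750, the widest region at any of the 33 genes (750 bp). The remaining OSU-ERb-12 region, at 55420501 to 55420700, lay inside the neighbour MTREX.

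HPGD, the gene of the prostaglandin-degrading dehydrogenase, held 3 enzalutamide regions on chromosome 4. They lay inside the gene at 174496651 to 174496950, just before the start site at 174523051 to 174523250, and 1408 bp before the gene at 174524301 to 174524650. The combination region, at 174524251 to 174524650, covered the outermost of them. ACSL3, a long-chain acyl-CoA synthetase gene, held 3 enzalutamide regions on chromosome 2. The first lay 665 to 864 bp after the start site, at 222861701 to 222861900, and the others lay inside the gene at 222878451 to 222878650 and 222939301 to 222939500. The OSU-ERb-12 region of ACSL3, at 222953701 to 222954000, lay 9062 bp past the gene. SORD, the sorbitol dehydrogenase gene, held 1 enzalutamide region, 6066 bp outside the gene.

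Genes of signalling, scaffold and trafficking proteins also numbered 8. All 8 held enzalutamide regions, 21 in total (against 58.3% of all protein-coding genes). OSU-ERb-12 regions were at 4 (against 39.1%) and a combination region at 1 (against 21.7%). The loci of these 8 genes are long. Over all genes the enzalutamide share was 62.9% for loci from 50 to 100 kb, 76.3% from 100 to 200 kb and 88.6% beyond. Per 100 kb this group held 1.46 enzalutamide regions, against 2.72 for the lipid, sterol and sugar genes. The surface genes held 1.5 and the nuclear and centrosomal genes 1.44. TPD52, a vesicle trafficking gene of chromosome 8, held 6 enzalutamide regions and no region of the other lists. Of these, 5 lay inside the gene between 80066651 and 80143700, at fairly even spacing through the middle of the gene, and the last at 80174401 to 80174700 lay 2837 bp outside. The read-through gene TPD52-MRPS28 shares the 5 inner regions and is as near to the last one, so none can be assigned to TPD52 alone.

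HOMER2, on chromosome 15, had 3 enzalutamide regions, at 82952501 to 82952900 across the inner start site, at 82973001 to 82973200, and at 82986401 to 82986750 next to the gene end, where it lay inside the neighbour RAMAC. Its OSU-ERb-12 regions, at 82896151 to 82896350 and 82928101 to 82928300, and its combination region, at 82943151 to 82943350, lay inside the gene with no overlap. STK39, a stress-kinase gene of ion transport control, and IQGAP2, a scaffold gene, each held 3 enzalutamide regions and no other. In STK39 they lay on chromosome 2 at 168243201 to 168243500, 168246751 to 168247150 and 168255951 to 168256250, the last 8356 bp before the gene. In IQGAP2 they lay on chromosome 5 at 76403751 to 76404000, 76604901 to 76605200 and 76716151 to 76716350, the last past the gene and inside F2R. In both genes 1 region lay within 1 kb after the start site.

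HERC3, a ubiquitin ligase family gene on chromosome 4, held 2 enzalutamide regions at 88593001 to 88593200 and 88630801 to 88631100, and 2 OSU-ERb-12 regions at 88531701 to 88531900 and 88588651 to 88588850. NDRG1, a stress-responsive gene on chromosome 8, also had 2 of each, at 133247651 to 133247850 and 133270101 to 133270300 for enzalutamide and at 133264201 to 133264400 and 133285201 to 133285400 for OSU-ERb-12. In these 2 genes all regions lay inside the gene, and none of one list overlapped the other. CAMKK2, a kinase gene upstream of AMPK, held 1 OSU-ERb-12 region inside the gene, at 121268051 to 121268250 on chromosome 12, and its enzalutamide region lay in the flank at 121304501 to 121304700. RAB3B, a vesicle GTPase gene, held 1 enzalutamide region inside the gene.

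Nuclear and centrosomal genes numbered 7, of which 5 held enzalutamide, 4 OSU-ERb-12 and 2 combination regions. Over all protein-coding genes the shares were 58.3%, 39.1% and 21.7%. ELL2, a transcription elongation factor gene on chromosome 5, held 6 enzalutamide regions that gathered at its 2 ends and left the middle empty. At the end with the lower coordinate they lay at 95880701 to 95880900, 95882301 to 95882500 and 95883101 to 95883800. At the other end they lay at 95960201 to 95960600, 95961701 to 95961900 and 95965501 to 95965800. An OSU-ERb-12 region lay at each end, at 95883901 to 95884100 and at 95961701 to 95961900, the second with the same boundaries as an enzalutamide region. CAST overlaps the end with the higher coordinate, so 2 of the enzalutamide regions and 1 OSU-ERb-12 region are also regions of CAST. Of all protein-coding genes, 1.71% held 6 or more enzalutamide regions.

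EAF2, which encodes a partner of ELL proteins, had 1 enzalutamide region inside the gene, at 121855551 to 121855950 on chromosome 3. Its 2 OSU-ERb-12 regions lay in the flanks, at 121831251 to 121831450 inside IQCB1 and at 121894351 to 121894700 inside SLC15A2. MAF, a bZIP transcription factor gene on chromosome 16, was the only one of the 33 with 2 combination regions. That at 79601551 to 79601750 lay within the enzalutamide region at 79601551 to 79601800, 814 bp before the gene, and that at 79211651 to 79211850 lay near the far end, where WWOX overlaps. The other enzalutamide regions of MAF lay at 79600301 to 79600500, just after the start site, and at 79438701 to 79438900. The OSU-ERb-12 regions lay inside the gene at 79405051 to 79405300 and 79524151 to 79524400.

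ZBTB10, a zinc finger gene on chromosome 8, held enzalutamide regions at 80486901 to 80487100 and 80530201 to 80530500 and a combination region at 80496701 to 80496900, without overlap. CENPN, a centromere protein gene, held its single OSU-ERb-12 region inside the gene, and its nearest enzalutamide region lay 15.9 kb away. NCAPD3, a condensin subunit gene, held 1 enzalutamide region in the flank. MPHOSPH9, a centrosomal protein gene, held none, with the nearest regions 25.7 kb (OSU-ERb-12), 27.7 kb (enzalutamide) and 41.3 kb (combination) from the gene.

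**Figure D3:**
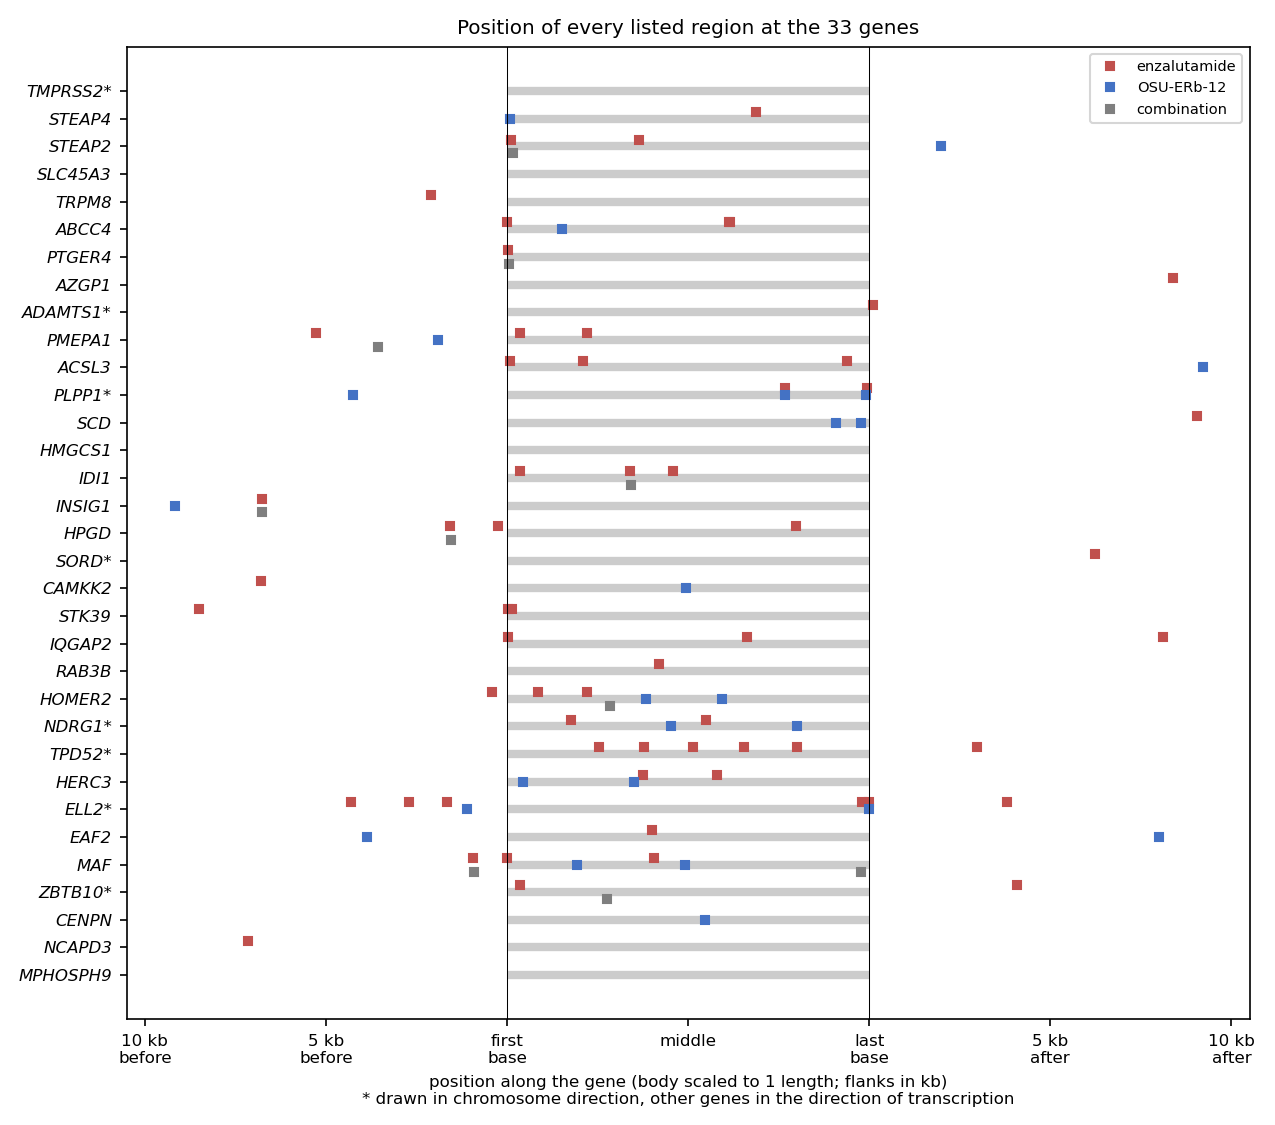
Position of every listed region along each of the 33 genes. The x axis gives the gene body scaled to 1 length between the vertical lines and 10 kb of flank on either side; colours are the 3 lists; genes with an asterisk are drawn in chromosome direction. Enzalutamide regions sit at or just after the first base of several genes and at both ends of ELL2, and in TPD52 they are spaced through the middle of the gene.

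By position, 14 of the 61 enzalutamide regions at the 33 genes lay within 1 kb of a gene end (23%, exact 95% interval 13.2 to 35.5), 30 lay elsewhere inside the gene and 17 in the flank. Over all pairs of a protein-coding gene and a region in its locus, 28.5% lay at a gene end. Of the 25 OSU-ERb-12 regions 5 lay at a gene end (20.0%, 6.83 to 40.7, against 11.9% over all pairs), and of the 10 combination regions 3 (30.0%, 6.67 to 65.2, against 20.3%). Each interval held the share over all pairs. Counted by gene, 13 genes held an enzalutamide region at an end, against 28.3% of all protein-coding genes. The same held for 4 genes in the OSU-ERb-12 list (7.88% of all genes) and 3 genes in the combination list (5.51%).

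Around start sites the regions lay mostly after the start. For the 25 genes with a start site in the RefSeq table, 14 enzalutamide regions had their midpoint within 1 kb of the nearest start site, at 12 genes. The midpoint lay downstream for 12 of them, and among the 14 only the HOMER2 region ran across the start site. Midpoint offsets ranged from -938.5 to 764.5 bp, where negative values are upstream, with a median of 348.5 bp. The 2 with an upstream midpoint were at HPGD and MAF, and MAF also held a downstream one.

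The same direction was present over all protein-coding genes. Of 4664 enzalutamide regions within 1 kb of a start site, 59.9% had their midpoint downstream and 22.7% ran across the start, with a median offset of 114.5 bp downstream. The downstream share was 58.9% of 944 regions in the OSU-ERb-12 list and 53.3% of 741 in the combination list. In these 2 lists the 25 genes with a start site gave few such regions, 1 for OSU-ERb-12, at STEAP4, and 3 for the combination, at STEAP2, PTGER4 and MAF. Genes without a start site in the table could not be counted here. Among them PLPP1 and ELL2 held OSU-ERb-12 regions at a gene end, so the OSU-ERb-12 count may be too low. By gene, a region within 1 kb of a start site was present at 12 of the 25 genes for enzalutamide (48.0%), against 29.2% of 15843 protein-coding genes with a start site in the table. It was present at 1 of 25 for OSU-ERb-12 (against 6.77%) and at 3 of 25 for the combination (against 5.12%). Start sites per gene were not matched, with 42 at the 25 genes and 22199 at the 15843, and inner start sites were counted, as at HOMER2.

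**Figure D4:**
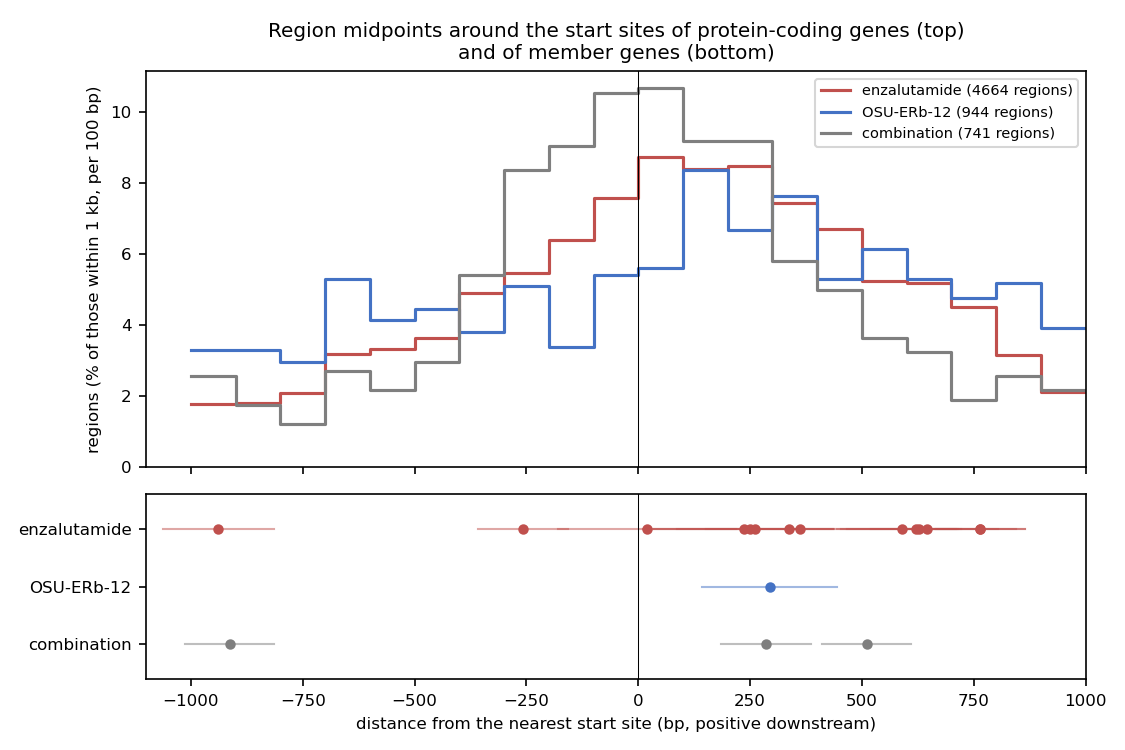
Midpoints of listed regions within 1 kb of the nearest annotated start site (x axis, bp, positive downstream). Top, all protein-coding genes, as percent of these regions per 100 bp. Bottom, the regions at the 25 androgen response genes with a start site in the table, with lines for their width. Of the 14 enzalutamide regions in the lower panel, 12 lie to the right of the start site.

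Overlaps between lists were counted gene by gene. Of the 10 combination regions at the 33 genes, 6 overlapped an enzalutamide region by at least 1 bp, at STEAP2, PTGER4, IDI1, INSIG1, HPGD and MAF. That is 60.0% of the combination regions (exact 95% interval 26.2 to 87.8) and 9.84% of the 61 enzalutamide regions. In the whole lists the shares were 16.3% and 4.02%, and among regions at protein-coding loci 18.8% and 4.56%. Of the 25 OSU-ERb-12 regions 3 overlapped an enzalutamide region, 2 at PLPP1 and 1 at ELL2, which is 12% of that list at these genes and 4.92% of the enzalutamide regions there. In the whole lists these shares were close, at 8.72% of OSU-ERb-12 and 6.17% of enzalutamide regions. At protein-coding loci they were 10.2% and 6.59%. No OSU-ERb-12 region overlapped a combination region at these genes (0 of 10 combination regions, which allows a share of up to 30.8% by the exact interval). Of all combination regions 12.7% did, and of those at protein-coding loci 14.1%. With 1 vehicle group for all 3 lists, these overlaps are given as a description.

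Other androgen response genes gave similar counts. Of 58 further genes chosen for this work, which includes the kallikreins KLK2, KLK3 and KLK4, 47 held enzalutamide regions (81.0%), 33 held OSU-ERb-12 regions (56.9%) and 14 held combination regions (24.1%). Per 100 kb of locus they held 1.85 enzalutamide, 0.860 OSU-ERb-12 and 0.262 combination regions. The phosphatase gene INPP4B held 8 enzalutamide and 3 OSU-ERb-12 regions in a locus of 843.4 kb. KLK2 held 4 and 1 in 27.1 kb, KLK3 held 3 and 1, and KLK4 held none. Neither INPP4B nor KLK2 held a combination region. The median locus of these genes was 90.7 kb, so they too are longer than most.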

How the data were processed

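Accessible chromatin of 12 samples in 4 groups of 3 was measured by ATAC-seq. Per the labels' protocols ATACSeqQC was used to split off nucleosome-free fragments, and per the submitters' processing notes FastQC, Trimmomatic and hg38 were used. Not given in the sources used here: peak caller, threshold, test, direction, pooling of replicates and transposase offset. The deposited lists give start and end of each region, and the deposited score is 0 throughout, which leaves regions unranked. Lists were matched to treatments by the prefix shared with the sample titles, which for OSU-ERb-12 is the unexplained WT. Depth per sample is unknown.

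Overlaps of at least 1 bp were counted with Python 3.11.15, pandas 2.3.3 and numpy 2.4.6 on RefSeq GRCh38.p14 genes of 24 chromosomes, and the counting was tested on simulated data. Coordinates are 1-based. Intervals are exact Clopper-Pearson and cover counting only. A region counted for every gene whose locus it overlapped. Genes and lists were chosen with earlier results of these data known. All 33 genes are named; positions are given for genes with regions of 2 or more lists, 3 or more regions of a list, or a gene-end region. No test across genes was run. Sequences of the regions themselves were not used here.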

Additional observations from a re-analysis of the deposited data

How the results depend on the processing

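Of the main counts recomputed under other settings, 45 stayed within 1.5 times their reported value and 15 did not. With 50 kb on either side of the gene the 33 genes held 96 enzalutamide, 42 OSU-ERb-12 and 18 combination regions, and 15 genes held a combination region (45.5%, against 39.6% of all protein-coding genes). With the gene body alone, combination regions fell to 6. Keeping only regions wider than 200 bp, in place of a stricter threshold, left 33 enzalutamide regions, 7 OSU-ERb-12 regions at 6 genes (18.2%, against 17.9% of all genes) and 3 combination regions at 3 genes (9.09%, against 8.14%). With 5 kb around gene ends, 7 genes held an OSU-ERb-12 and 5 a combination region there. The share of all protein-coding genes was not computed for that wider window, so these counts are not read further. At the start site alone 1 gene held an OSU-ERb-12 region. That setting could count only the 25 genes with a start site in the table, which leaves out PLPP1 and ELL2. With identical boundaries required, 1 region was shared by the enzalutamide and OSU-ERb-12 lists and 1 by the enzalutamide and combination lists. Counting each region only for its nearest protein-coding gene left 26 genes with an enzalutamide region (against 48.9% of all genes), 14 with an OSU-ERb-12 region (32.5%) and 9 with a combination region (17.3%). The exact interval of the enzalutamide share held the share of all genes with 5 kb on either side and not under the other 6 settings. Of these, merging regions within 1 kb cannot change whether a gene holds a region, so it could only repeat the main result. Counting by midpoint is nearly the same measure as the main one, with 28 genes (against 58.1% of all genes). The settings are therefore not separate checks. The settings differ in the size of the window, the regions kept, the match or the genes that can be counted. What moved each count was not tested. No paired analysis was possible because the lists hold no values per library, and for the same reason no replicate could be left out. How depth limits each list is unknown.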

Other observations

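At the 33 genes 45.9% of the enzalutamide regions had the minimum width of 200 bp, close to 45.7% of the whole list. Of 61 regions, 10 were 400 bp or wider, led by PLPP1 (750 bp), STEAP2 (700 bp) and ELL2 (700 bp), and 13.1% of enzalutamide regions at protein-coding loci were. No OSU-ERb-12 region at these genes and 1 combination region, at HPGD, reached 400 bp.

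Some counted regions belong at least as much to a neighbour. Of 20 enzalutamide regions that lay outside the gene they were counted for, 4 lay inside another protein-coding gene (F2R, RAMAC, CAST and VPS26B), as did 4 of 8 OSU-ERb-12 regions (CFAP69, MTREX, IQCB1 and SLC15A2) and none of 4 combination regions.

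The promoter windows were searched on both strands for a few motifs. The complete androgen response element, with its arms AGAACA and TGTTCT 3 bases apart, was in none of the 42 windows and in none of the 22199 windows of protein-coding genes, so its absence sets nothing apart. AGAACA alone was in 5 of the 42 windows (11.9%), at STK39, TRPM8, IQGAP2 and PMEPA1, and in 11.7% of all windows. The forkhead motif TGTTTAC was in 1 window, that of the inner STEAP2 start site, against 2.85% of all windows.

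CCAAT was in 21 of the 42 windows (50.0%), against 34.7% of all windows. By gene it was at 18 of 25 (72.0%), against 42.1% of 15843 genes. Windows per gene were not matched, with 42 at the 25 genes and 22199 at the 15843. GGGCGG, the GC box, was in 27 windows (64.3%), against 56.3%. In the HOMER2 window 7 of its 8 matches lay in the stretch covered by the enzalutamide region, which is 230 of the 300 bases. No other match of any of these motifs at the 25 genes lay wholly in a listed region. A GC box in the window of the inner IDI1 start site lay partly in the enzalutamide region. Matches of different motifs can overlap. The oestrogen response element, GGTCA and TGACC 3 bases apart, and the sterol element TCACNCCAC were in none of the 42 windows, against 0.0360% and 1.13% of all windows. These are letter matches in windows around start sites, and most listed regions lie outside them.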
